A study of Mus musculus with 6 samples.

Results

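Among the 8040 new lncRNAs assembled from mouse cortex, 318 (3.96%) held a long perfect dinucleotide repeat of G and U or of C and A. A transcript was taken when its RNA sequence, as deposited, alternated G with U or C with A without interruption over at least 30 nucleotides (nt), which is 15 units, in either phase. GU tracts were found in 71 transcripts (74 tracts) and CA tracts in 252 transcripts (259 tracts). There were 5 transcripts with both types, and they count in each number.

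The study sequenced cortex RNA from around the bleeding areas of adult male wild type C57BL/6 mice (of the J substrain in the methods) at 24 h after subarachnoid haemorrhage (SAH), produced by perforating a cerebral artery from inside the vessel, and from controls. The samples of the control group are described as normal, whereas the methods describe the same surgery with no perforation. There were 3 libraries in each group, each made from the pooled lysates of 3 mice. The deposited records hold 1 sequence, 1 predicted secondary structure and 1 folding free energy for each new transcript over all 6 libraries, with no value for a library, so the depth behind a transcript is unknown and no value could be compared between control and SAH. The labels describe a deoxy-UTP mark on a cDNA strand, a step of strand-aware libraries, but the records name no gene, position or strand, and GU and CA therefore describe the sequence as deposited.

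LncRNAs are long transcripts without a protein product. CA/GT repeats are among the commonest microsatellites of mammalian genomes, and transcripts copied across one carry it in their RNA. GU and CA repeats are complementary to each other, so the same genomic repeat gives a GU tract from one strand and a CA tract from the other. In RNA, G pairs with C and, as a weaker wobble pair, with U, whereas C and A do not pair with each other. A GU tract can thus pair with itself, and a CA tract cannot. UG repeats are a known binding sequence of TDP-43 and CELF1, and CA repeats of hnRNP L, all of which are RNA-binding proteins that act in splicing and RNA stability.

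The tracts that the results turn on are shown 5′ to 3′, with the tract in capitals. On each side stand 20 nt, or fewer where the end of the transcript is nearer, as before the GU tract of TCONS_00185429. The first line is the longest GU tract, and the next are the GU and CA tracts of 3 transcripts that held both types.
TCONS_00166133 GU tract: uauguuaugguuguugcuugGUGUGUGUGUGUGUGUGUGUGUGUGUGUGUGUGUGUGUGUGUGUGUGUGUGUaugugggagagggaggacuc
TCONS_00033438 GU tract: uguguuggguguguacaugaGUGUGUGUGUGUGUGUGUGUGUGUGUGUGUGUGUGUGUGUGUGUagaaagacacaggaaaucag
TCONS_00033438 CA tract: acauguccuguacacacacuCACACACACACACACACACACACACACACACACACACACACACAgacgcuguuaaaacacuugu
TCONS_00185429 GU tract: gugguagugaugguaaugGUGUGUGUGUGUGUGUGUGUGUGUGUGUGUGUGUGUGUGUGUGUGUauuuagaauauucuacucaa
TCONS_00185429 CA tract: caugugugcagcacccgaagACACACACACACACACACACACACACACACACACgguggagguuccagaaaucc
TCONS_00166562 GU tract: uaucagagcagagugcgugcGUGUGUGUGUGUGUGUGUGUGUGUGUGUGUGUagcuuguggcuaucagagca
TCONS_00166562 CA tract: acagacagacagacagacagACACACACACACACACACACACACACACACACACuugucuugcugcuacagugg

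The longest CA tracts follow, then the CA tract of TCONS_00023646, the transcript with the largest share of its length in tracts.
TCONS_00192514 CA tract: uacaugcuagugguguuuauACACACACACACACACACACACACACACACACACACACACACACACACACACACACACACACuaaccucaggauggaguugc
TCONS_00195703 CA tract: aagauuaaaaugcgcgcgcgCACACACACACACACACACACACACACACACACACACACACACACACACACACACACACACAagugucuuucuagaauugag
TCONS_00008000 CA tract: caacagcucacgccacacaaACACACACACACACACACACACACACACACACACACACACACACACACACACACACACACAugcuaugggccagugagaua
TCONS_00009503 CA tract: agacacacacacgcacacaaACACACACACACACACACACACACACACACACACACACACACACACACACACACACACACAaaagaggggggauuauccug
TCONS_00183236 CA tract: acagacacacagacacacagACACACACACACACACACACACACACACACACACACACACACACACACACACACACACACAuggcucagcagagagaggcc
TCONS_00023646 CA tract: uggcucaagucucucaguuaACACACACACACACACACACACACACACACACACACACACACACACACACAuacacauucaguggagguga

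The stretches opposite some of these tracts in the deposited structures are shown next, with the paired bases in capitals and the unpaired bases in lower case. The first lies opposite a GU tract that met no CA tract, the second opposite a CA tract that met no GU tract, and the third is the CA tract stretch that met the GU tract of TCONS_00033438.
TCONS_00166133 opposite its GU tract: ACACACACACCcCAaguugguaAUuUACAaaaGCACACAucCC
TCONS_00009503 opposite its CA tract: UGUGUGUcUGUGUGaGUcUcUGUcUcUGU
TCONS_00033438 opposite its GU tract: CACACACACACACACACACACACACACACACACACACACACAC

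Long CA tracts outnumbered long GU tracts. Of the 313 transcripts with 1 of the types, 66 (21.1%) held GU, with an exact 95% binomial interval of 16.7% to 26.0% that covers counting error only. Tracts occurred at 7.08 (GU) and 24.8 (CA) per megabase (Mb) of all records. The CA density was higher in each quartile of transcript length than in the one before, from 18.1 per Mb in the shortest transcripts (205 to 849 nt) to 28.4 in the longest (1490 to 10118 nt). The GU density moved from 3.01 to 8.62, 5.82 and 8.30, over only 4, 17, 15 and 38 tracts. At the same limit, perfect tracts of the other alternations were found in 40 (A and G), 69 (C and U), 12 (A and U) and 0 (G and C) transcripts.

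The difference between the orientations grew with tract length. Tracts of 18 to 23 nt, below the limit, numbered 93 (GU) and 96 (CA), a ratio of 1.03 CA tracts per GU tract. The ratio was 1.58 at 24 to 29 nt, 2.46 at 30 to 35 nt, 2.60 at 36 to 41 nt and 4.91 at 42 to 47 nt. At 48 to 53 nt there were 29 CA tracts and 1 GU tract, and at 54 to 65 nt there were 20 CA tracts and 0 GU tracts. Shorter runs of 12 to 17 nt broke this order, with 320 CA and 214 GU runs, or 1.5 per GU run.

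**Figure D1:**
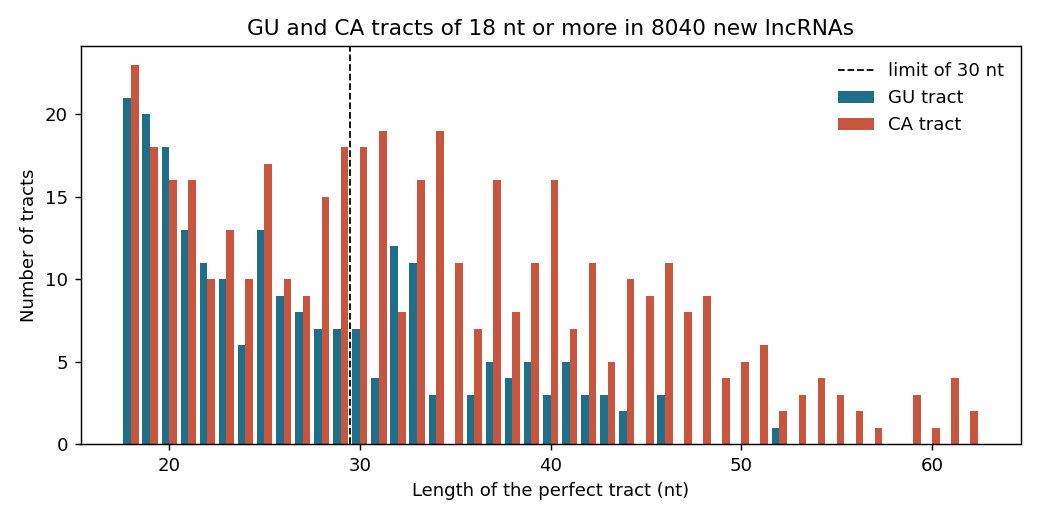
Number of perfect GU tracts (blue) and CA tracts (red) at each length in nt, for tracts of 18 nt or more in all 8040 records; the dashed line is the limit of 30 nt. The 2 types are about as frequent at 18 to 23 nt (93 and 96 tracts), and beyond 47 nt nearly all tracts are CA.

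GU tracts had a median length of 35 nt (quartiles 32 and 40, range 30 to 52) and CA tracts of 39 nt (quartiles 34 and 46, range 30 to 62). The longest GU tract, of 52 nt, lay in TCONS_00166133, followed by tracts of 46 nt in TCONS_00185429, TCONS_00240336 and TCONS_00243169. The longest CA tracts were of 62 nt, in TCONS_00192514 and TCONS_00195703, and of 61 nt in TCONS_00008000, TCONS_00009503 and TCONS_00183236. Around the limit the counts changed little, with 7 GU and 15 CA tracts of 28 nt, 7 and 18 of 29 nt, 7 and 18 of 30 nt, and 4 and 19 of 31 nt. Most transcripts held 1 tract of their type, and 3 GU and 7 CA transcripts held 2 of them.

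In the deposited structures GU tracts were mostly paired and CA tracts mostly open. The percent of tract bases that were paired had a median of 73.5% in GU tracts (quartiles 60 and 86.2, range 37.8 to 100) and of 14.6% in CA tracts (quartiles 5.48 and 27.8, range 0 to 100). No GU tract was wholly unpaired, 65 of 74 had over 50% of their bases paired, and 4 were paired at every base. Of the 259 CA tracts, 34 had no paired base at all, 186 were below 25% paired, 31 were over 50% paired and 1 was paired throughout. The ranges of the types overlapped between 37.8% and 100%. In the alternative fold with newer energy parameters, described in the processing, the medians were 78.1% (71 GU tracts) and 13.2% (233 CA tracts). That fold covered only transcripts of at most 4000 nt.

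**Figure D2:**
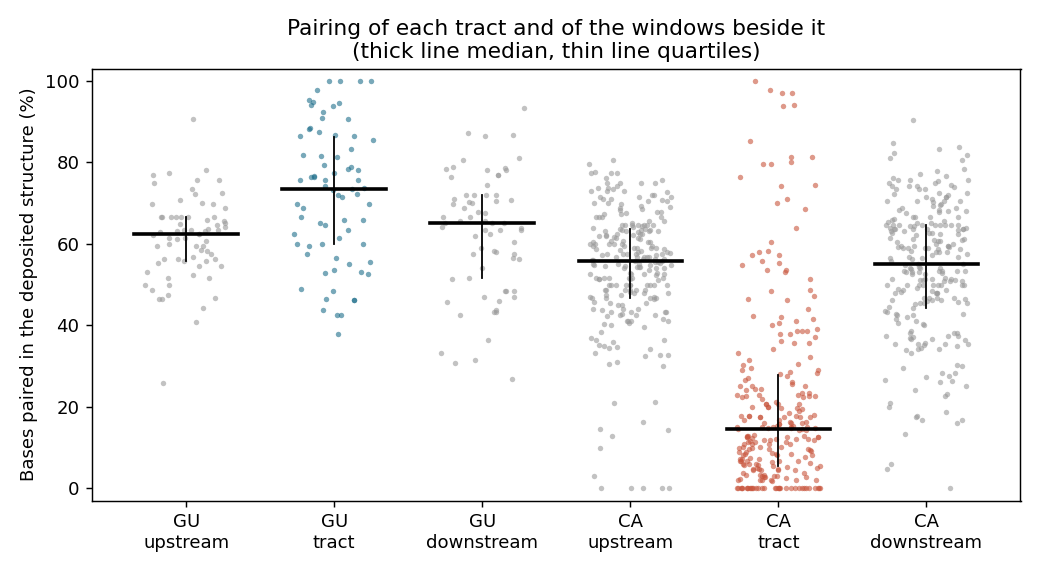
Percent of bases paired in the deposited structure, for each GU tract (blue), each CA tract (red) and the windows of the same length directly upstream and downstream (grey); thick lines are medians and thin lines span the quartiles. GU tracts lie around a median of 73.5% and CA tracts around 14.6%, while the windows beside both types have medians of 55% to 65%.

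The sequence beside the tracts differed less. Windows of the same length as the tract had a median of 62.5% paired bases upstream and 65% downstream of GU tracts, and 55.8% and 55% beside CA tracts. Of the 236 CA tracts with both windows inside the transcript, 195 were less paired than both and 19 more paired than both. For GU tracts these numbers were 20 and 36 of 67. Against the rest of their own transcript, 238 of 259 CA tracts were less paired and 53 of 74 GU tracts more paired. The first 10 nt beside CA tracts were paired at 48% upstream and 51.1% downstream, compared with 59.0% and 57.7% at over 100 and up to 150 nt from the tract. Across all records a mean of 58.6% of bases was paired.

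The partners of the tracts followed their letters. Of the 1936 paired bases of GU tracts, 38.0% were in A-U, 34.0% in G-C and 27.9% in G-U pairs. Of the 2183 paired bases of CA tracts, 49.8% were in G-C and 50.2% in A-U pairs, and no other kind of pair is open to C or A. By paired base, with each pair inside a tract counting for both of its bases, 7.54% of the paired GU tract bases had their partner in the same tract, in 14 tracts, and 8.88% had it in a CA tract of at least 30 nt, in 5 tracts. With the newer parameters the share of paired bases with a partner in the tract was 0.824%, over the 71 GU tracts in transcripts of at most 4000 nt. This share differs from the 7.54% in the set of tracts, the energy parameters and the dangling-end setting, and the part of each was not tested. The remaining 83.6% of paired GU tract bases and 92.1% of paired CA tract bases were paired with sequence that was not such a tract. The longest uninterrupted helix of a tract had a median of 8 base pairs for GU and 4 for CA, and the longest in each type was 43 base pairs.

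The median pairing of tracts was higher where the transcript held a longer run of the complementary repeat, with exceptions among single tracts. For example, a CA tract with a longest run of 29 nt was 11.8% paired, and another with 7 nt was 81.25% paired. Where the longest GU run in the transcript was under 8 nt, CA tracts had a median of 11.6% paired bases (204 tracts). The median was 34.5% with a longest run of 8 to 11 nt (34 tracts) and 45.5% with 12 to 17 nt (6 tracts). It was 74.3% with 18 to 29 nt (9 tracts in 8 transcripts) and 97.1% with 30 nt or more (6 tracts in 5 transcripts). Some of these transcripts share sequence outside their tracts, so the tracts are not all independent cases. GU tracts were already at 65.8% where the longest CA run was under 8 nt (48 tracts), and at 81.8% with 8 to 11 nt (17 tracts). With 12 to 17 nt, 18 to 29 nt and 30 nt or more the medians for GU tracts were 89.2%, 95.3% and 100%, over 2, 2 and 5 tracts. The 5 transcripts with a run of 30 nt or more are the same for both types. Of the 31 CA tracts over 50% paired, 15 had a complementary run of at least 12 nt in their transcript, and of the 34 unpaired CA tracts, 0 had one. Over all 259 CA tracts only the 6, 9 and 6 tracts of the upper bands had such a run, so the 0 among 34 says little. Transcripts of CA tracts with a run of 8 nt or more were also longer, with band medians of 1702 to 2484 nt against 1428 nt in the lowest band, and the part of length in this relation was not tested. These bands were chosen after the values were seen.

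**Figure D3:**
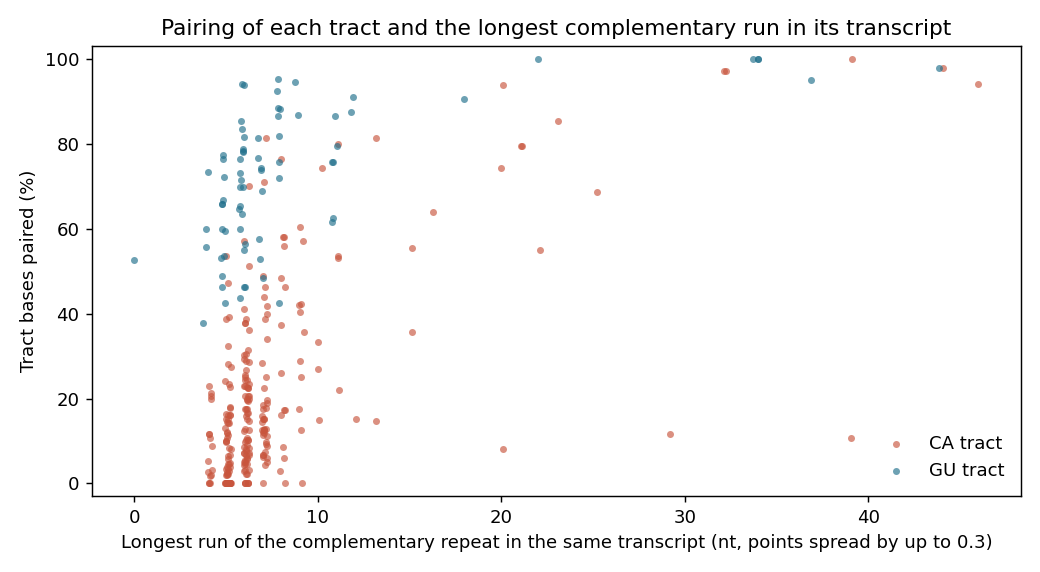
Percent of tract bases paired in the deposited structure against the longest run of the complementary repeat in the same transcript (nt; runs under 4 nt are drawn at 0), for each GU tract (blue) and CA tract (red). CA tracts sit low at short runs, with a median of 11.6% under 8 nt, and all but 1 of the 6 with a run of 30 nt or more are near complete pairing.

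In each of the 5 transcripts with both types, a GU tract paired with a CA tract. In TCONS_00033438 (1227 nt) the GU tract at positions 61 to 104 and the CA tract at 1099 to 1142 formed a helix of 43 base pairs with no wobble pair, over a distance of 1038 nt, which in the predicted structure placed the ends of the transcript close to each other. TCONS_00185429 (1705 nt) paired 32 bases of its GU tract at 19 to 64 with the CA tract at 870 to 903, and the other 14 bases of the GU tract also found partners elsewhere. TCONS_00166562 (1810 nt) and TCONS_00168036 (1479 nt) share sequence outside the tracts and are not independent examples. Each had a helix of 32 base pairs over 546 nt, between the GU tract at 901 to 932 and the CA tract at 1447 to 1480 in the former, and between positions 48 to 79 and 594 to 627 in the latter. TCONS_00249963 (6022 nt) held a GU tract at 3980 to 4018 and 2 CA tracts. Its CA tract at 5917 to 5949 paired at every base with the GU tract, whereas the CA tract at 5127 to 5163 had 10.8% of its bases paired.

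Some tracts departed from the pattern of their type. The CA tract of 61 nt in TCONS_00009503 was 63.9% paired, mainly with the interrupted GU and CU repeat shown above. The other CA tracts among the 5 longest had 11.3% (TCONS_00192514), 3.23% (TCONS_00195703), 11.5% (TCONS_00008000) and 8.20% (TCONS_00183236) of their bases paired. The CA tract of TCONS_00023646, 51 nt in a transcript of 703 nt, had no paired base. In the longest GU tract, in TCONS_00166133, 61.5% of the bases were paired, with partners between positions 772 and 1073, some 435 nt away at the median. In the deposited structures the least paired GU tract was that of TCONS_00165414, 37 nt long and 37.8% paired. All 14 of its paired bases were in G-U pairs within the tract. With the newer parameters this tract was 59.5% paired, and 0 of its bases had a partner within it. The GU tract of TCONS_00198950, 41 nt, was paired at every base in a helix of 40 base pairs with sequence that was not a CA tract of 30 nt. These last 2 transcripts were chosen after their values were seen.

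Keeping a GU tract open cost far more folding energy than keeping a CA tract open. For the 293 transcripts of at most 4000 nt, the fold was repeated with all bases of the tract forbidden to pair, and the cost is the free energy lost. The median cost was 15.9 kcal/mol for 71 GU tracts (quartiles 11.5 and 22.5, range 3.90 to 80.5) and 2.36 kcal/mol for 233 CA tracts (quartiles 0.60 and 4.5, range 0 to 65.03). Per tract base the medians were 0.465 and 0.0605 kcal/mol. The cost was below 1 kcal/mol for 75 CA tracts and 0 GU tracts, and 10 kcal/mol or more for 26 CA tracts and 57 GU tracts. A tract with no paired base in the repeated fold costs 0 by construction, so the cost partly restates the pairing.

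Windows of the same length beside the tracts cost medians of 11.9 (upstream) and 14.3 kcal/mol (downstream) for GU and 11.7 and 11.4 kcal/mol for CA. The cost of the tract lay below that of both windows for 179 of 212 CA tracts and above both for 11, whereas for GU tracts it was below both for 12 and above both for 30 of 64. TCONS_00033438 had the largest cost in each type, 80.5 kcal/mol for its GU tract and 65.03 kcal/mol for its CA tract. It was followed by TCONS_00185429 (57.4) and TCONS_00166562 (49.0) for GU, and by TCONS_00166562 (40.4) and TCONS_00185429 (39.0) for CA. The longest GU tract, in TCONS_00166133, cost 32.8 kcal/mol, and of the longest CA tracts that were folded, TCONS_00192514 cost 6.07, TCONS_00008000 0.900 and TCONS_00183236 0.0700 kcal/mol.

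**Figure D4:**
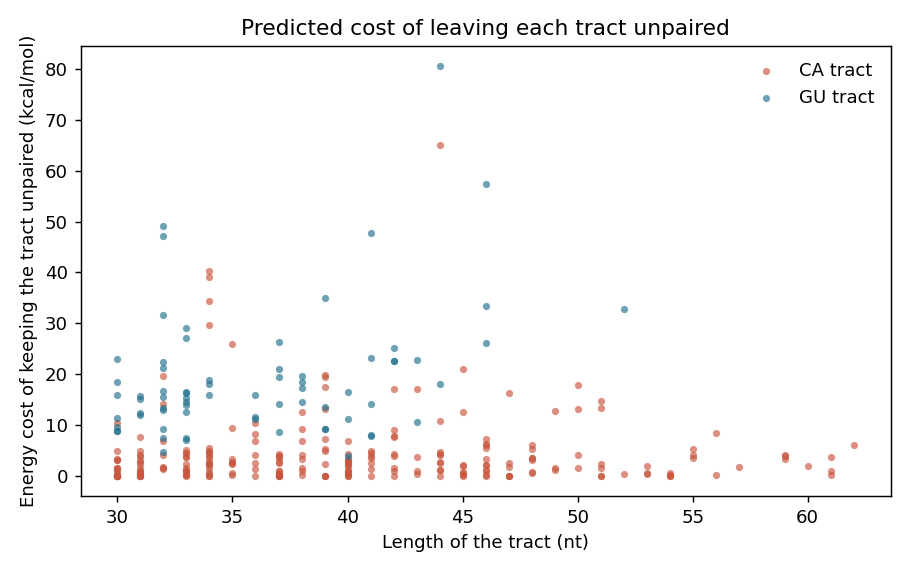
Predicted energy cost in kcal/mol of leaving a tract unpaired against tract length in nt, for 71 GU tracts (blue) and 233 CA tracts (red) in transcripts of at most 4000 nt. Most CA tracts lie near 0 at every length, and the highest points of both types at 44 nt are the GU and CA tracts of TCONS_00033438.

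Since the strand of the records is not given, each transcript of at most 4000 nt was also folded as its complement. There a GU tract reads as CA and a CA tract as GU. The complement of the GU tracts had a median of 18.2% paired bases and that of the CA tracts 70.5%. Of 71 GU tracts, 70 were less paired on the complement and 0 more, and of 233 CA tracts, 231 were more paired and 2 less. Folding the complement changes the rest of the transcript along with the tract, and the part of the tract's own letters was not tested. The complement also folded to a lower total energy for 179 of 229 CA transcripts and for 17 of 68 GU transcripts, with median differences of -1.73 and 1.23 kcal/mol per 100 nt.

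**Figure D5:**
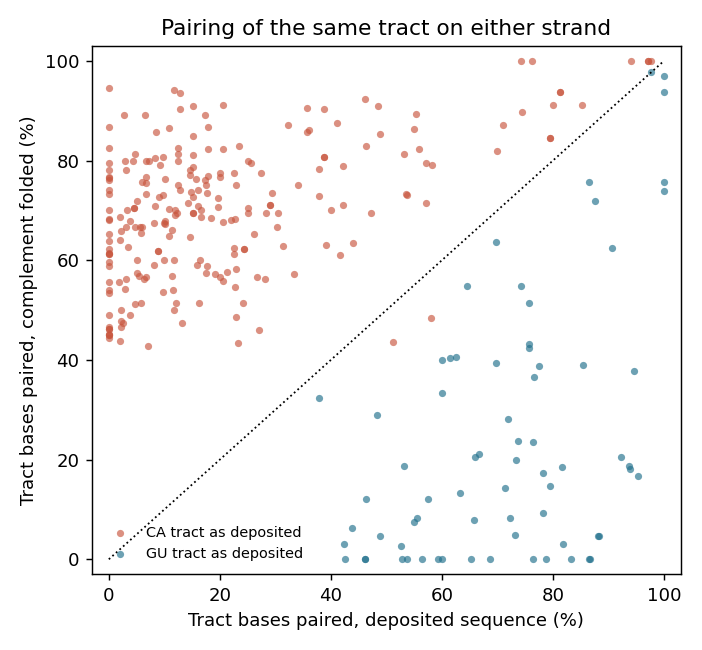
Percent of tract bases paired on the complement against that on the deposited sequence, for tracts that read GU (blue) or CA (red) as deposited; the dotted line marks equal values. GU tracts lie on or below the line and all but 2 of 233 CA tracts above it.

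The tracts were spread along the transcripts. The centre of GU tracts fell 23, 11, 11, 12 and 17 times in the 5 equal parts of the transcript from the 5′ to the 3′ end, and that of CA tracts 51, 59, 47, 56 and 46 times. Within 50 nt of an end lay 10 of 74 GU tracts (13.5%) and 26 of 259 CA tracts (10%), where 7.05% and 7.25% of the places such tracts could take lie that close. A tract formed the very end of the record 4 times for GU, each at the 3′ end, and 5 times for CA, 3 of them at the 5′ end. At their borders, CA tracts began with A in 167 and with C in 92 cases, and U was the most frequent base before them (126 of 259). GU tracts ended with U in 50 and with G in 24 cases, and A was the most frequent base after them (34 of 74).

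Of the tract's own letters, some were more frequent in the 50 nt beside the tracts than in transcripts with neither tract, and some were not. U made up 35.3% of the bases upstream and 31.5% downstream of GU tracts, compared with 29.1% over the transcripts with neither tract, while G made up 19.8% upstream and 23.2% downstream, compared with 20.8%. Upstream of CA tracts C made up 25% and A 30.3%, and downstream C made up 20.5% and A 34.7%, where transcripts with neither tract had 20.7% C and 29.4% A. A tract of 12 nt or more of another dinucleotide lay within 10 nt of 5 GU and 17 CA tracts. For CA the most frequent arrangement was a CU tract just upstream, in 10 cases, followed by an AG tract just downstream, in 4.

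Transcripts with a tract were longer than the others, with a median of 1489 nt (GU) and 1485.5 nt (CA) against 1106 nt for the 7722 transcripts with neither. The tract itself took a median of 2.71% (GU) and 2.69% (CA) of the length, and at most 7.17% and 7.25%. The GC content differed little, with medians of 43.0%, 41.3% and 41.6%. The free energy per 100 nt had a median of -30.3 kcal/mol in GU transcripts, -27.3 in CA transcripts and -27.9 in the rest. After a linear fit on GC content over all records the medians were -1.41, 0.364 and -0.218 kcal/mol per 100 nt. The whole transcript was paired at a median of 60.4% (GU), 57.5% (CA) and 58.9% (neither). With the tracts left out, A was more frequent than U in 38.0% of GU transcripts, 66.7% of CA transcripts and 52.4% of transcripts with neither. These values describe the transcripts, which are not replicates of a condition, and no test was run on them.

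Some of the tract transcripts shared sequence with each other. Exact stretches of at least 50 bases outside the tracts linked 55 of the 318 transcripts into 24 groups of 2 to 4, and no stretch of a member matched the complement of another member. The group of TCONS_00101735, named after its values were seen, held 1 GU and 3 CA transcripts. With any of the 8040 records, 34 GU transcripts (47.9%) and 98 CA transcripts (38.9%) shared such a stretch. These shares cannot be called high or low, because none was computed for the transcripts with neither tract. The longest open reading frame from AUG to a stop codon had a median of 63 (GU) and 62 (CA) codons on the deposited strand, and 52 in the others. On that strand no record exceeded 99 codons, whereas on the complement frames of at least 100 codons occurred in 15.5% of GU transcripts, 13.5% of CA transcripts and 7.20% of those with neither, which were also shorter.

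The sequences were compared with promoter windows from RefSeq (build GRCm38.p6), which run from 250 bases before to 50 bases after a gene start. A whole window was found in 3 tract transcripts, always on the gene's strand. TCONS_00166562 held that of Gm46875 (chr4:142304346-142304645, plus strand), with its GU tract 74 nt and its CA tract 620 nt after the gene start. TCONS_00075004 held that of A730060N03Rik (chr15:78122639-78122938, plus strand), with a CA tract 617 nt after the gene start that was 10.2% paired. TCONS_00040957 held that of Gm21885 (chr11:94281589-94281888, plus strand), with a CA tract 1164 nt before the gene start that was 22.7% paired. Stretches of at least 40 bases of a window outside the tracts were found in 23 tract transcripts, which were 6 of those with GU tracts alone (9.09%), 16 of those with CA tracts alone (6.48%) and 1 of the 5 with both, compared with 6.16% of the transcripts with neither tract.

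None of 1005 miRNA hairpins of RefSeq lay in any of the 8040 records, the tract transcripts included. Of 1738 mature miRNAs, 1 had a seed (bases 2 to 8, in capitals) that alternates G and U, and 0 had one that alternates C and A.
mmu-miR-466k: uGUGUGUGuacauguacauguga
By its letters the seed is complementary to a CA tract. The match is a description of the sequences, and binding was not measured.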

How the data were processed

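Cortex RNA of 6 libraries, 3 control and 3 SAH, was sequenced, and per the labels and methods TopHat2 and the build mm10 were used by the authors. The assembler, the coding potential tool, the folding program and the way the strand of each new transcript was set are not given in the sources used here. The authors deposited 8040 records pooled over all libraries, each with an RNA sequence, a dot-bracket structure and a folding free energy in kcal/mol, and library depths were not used here. A predicted structure is not a measured one, and its pairs depend on the energy model.

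Perfect alternating tracts of 30 nt or more were found on the deposited sequence, and pairing was read from the deposited structure. Transcripts of at most 4000 nt (293 of 318) were folded again with ViennaRNA 2.7.2 (its older Turner parameter set, dangling-end setting 1), and all 293 energies came within 0.01 kcal/mol of the record's own, with an identical structure for 277. These folds gave the cost of an unpaired tract. The newer default Turner parameters, pair probabilities (transcripts of at most 2000 nt only, a limit set for computing time, with dangling-end setting 2), other tract limits, tracts joined over at most 2 nt and 1 record per group sharing 50 bases were tried as alternatives, and folding of the complement was added after seeing the data. The folds with the newer Turner parameters also used dangling-end setting 2. The share of GU among transcripts with 1 type carries an exact 95% binomial interval, for counting error only, and other shares are given as counts or percentages without one. No test was run, because transcripts are not replicates. Python 3.11.15, numpy 2.4.6, scipy 1.17.1 and matplotlib 3.10.9 were used. On simulated data 200 of 200 planted tracts were found at their exact limits.

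The members and lists were chosen with earlier results of these data known. Named transcripts were, for each type, the 5 with the longest tract, the 3 with the largest share of length in tracts, the 3 with the largest cost, all with both types or with tracts of the types paired to each other, and those holding a promoter window or a miRNA hairpin. Exceptions are marked. Sequence is shown for 10 of them.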

Additional observations from a re-analysis of the deposited data

How the results depend on the processing

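Of 64 alternative values for 27 results, 47 stayed within the spread of the transcripts, the counting interval or 1.5 times the count. A limit of 24 nt gave 118 GU transcripts. A limit of 40 nt gave 20 GU and 124 CA transcripts and a GU share of 13.4%, and of the paired bases in these longer tracts 12.0% (GU) and 3.94% (CA) had their partner in a tract of the other type. The newer Turner parameters put 23.3% of the paired GU tract bases in G-U pairs, 0.824% in pairs within the tract and 6.34% in pairs with a CA tract. These shares cover the 71 GU tracts in transcripts of at most 4000 nt, which leaves out TCONS_00249963. They thus differ from the main values, over 74 GU tracts, in the set of tracts and the dangling-end setting as well as in the energy parameters. Folding the complement gave median pairing of 18.2% for GU and 70.5% for CA tracts. With 100 nt in place of 50, 19.7% of CA tracts lay near an end, where 14.5% of the places they could take lie that close. At 100 nt U made up 33.5% upstream of GU tracts, and C upstream and A downstream of CA tracts made up 23.5% and 33.4%. With 25 nt, C upstream was 26.2%. A promoter stretch of 60 bases was shared by 4 transcripts, which were 0 with GU alone, 3 with CA alone (1.21%) and 1 with both, compared with 2.38% of those with neither. The complement was added after seeing the data. The cause of these shifts was not tested, although a longer tract or stretch must leave fewer members and a wider end window must take in more places. Leaving out a replicate was not possible. No paired analysis was possible because the records hold no value for a library. Pair probabilities cover 50 GU and 182 CA tracts, with medians of 66.4% and 20.5%.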

Other observations

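Tract length and pairing were also set side by side within each type, as values with no test. CA tracts of 30 to 35, 36 to 41, 42 to 47 and 48 to 65 nt had median pairing of 15.2%, 17.5%, 14.6% and 11.5%, over 91, 65, 54 and 49 tracts, and median costs of an unpaired tract of 2.25, 2.60, 2.34 and 2.20 kcal/mol. GU tracts of 30 to 35, 36 to 41 and 42 to 47 nt had median pairing of 75.8%, 65.8% and 81.4%, over 37, 25 and 11 tracts, and median costs of 15.3, 14.4 and 23.9 kcal/mol.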
